A study of Mus musculus with 10 samples.

Results

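The 10 Toll-like receptor genes listed for mouse macrophages here, Tlr1 to Tlr9 and Tlr13, were taken by gene name, a rule that uses no measured value, although the family was picked for description with earlier results of these data known. All 10 were found by symbol in the deposited table of 57010 gene identifiers. Expression was measured by RNA sequencing in 10 libraries of bone marrow-derived macrophages (BMDM), which are macrophages grown from marrow precursors in culture. Marrow came from wild-type (WT) mice or from mice knocked out for WASp (WKO), and was cultured for 7 days in RPMI with 20 ng/mL recombinant mouse macrophage colony-stimulating factor (MCSF). WASp is an activator of branched actin assembly in blood cells. Cells were unconfined or had been held for 1 h at a height of 3 µm by vertical confinement under polydimethylsiloxane (PDMS) micropillars. There were 2 WT unconfined, 2 WKO unconfined, 3 WT confined and 3 WKO confined libraries. No age, sex or strain of the mice is given in the labels used here, and every group shared the same MCSF culture. The labels do not say whether the libraries of a group came from separate mice or cultures, so p-values measure the spread between these libraries, which may be technical.

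Toll-like receptors are membrane proteins that recognise conserved molecules of microbes and of damaged cells. Those at the cell surface bind lipids, lipoproteins or flagellin, and those in endosomes bind nucleic acids. Most signal through the adaptor MyD88, and some through the adaptor TRIF, to the transcription factors NF-kB and the interferon regulatory factors, which induce cytokine genes. Macrophages carry many members of the family and use them to sense bacteria and viruses.

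The libraries held between 13295701 and 19329908 reads. Was, the targeted gene, lay between 1308 and 1649 normalized counts in the 5 WT libraries and between 96.9 and 154 in the 5 WKO libraries. All 8 listed macrophage marker genes (Adgre1, Csf1r, Cd68, Fcgr1, Mertk, Itgam, Lyz2 and Cd14) were present. Their summed level was between 179561 and 208283 in WT and between 241895 and 314561 in WKO libraries. Markers of other cells were also found. The 10 neutrophil and progenitor markers summed to between 2545 and 10837 in WT and between 6971 and 29830 in WKO libraries, and the 6 B cell markers to between 410 and 874 in WT and between 1572 and 5198 in WKO libraries. WKO confined replicate 5 stood apart: its 8 stromal markers summed to 7739, against at most 2547 in any other library, and 7 of the 8 were highest there. It also had the highest macrophage sum, 314561, with 5 of those 8 genes highest there, and the highest sum of plasmacytoid dendritic cell markers, 3215. In bulk RNA, more cells of a type and more RNA per cell cannot be told apart.

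The receptor genes differed widely in level. To compare genes, the normalized count was divided by the merged exon length of each gene in GENCODE M21. Tlr13, whose product binds bacterial ribosomal RNA in endosomes, had the highest level per kilobase in WT unconfined cells, 1924 ± 62.4 (SD, n = 2), or 43.2% of the sum over the 10 genes. Tlr8 followed with 964 ± 8.63 and Tlr7 with 503 ± 79.7, so that 3 endosomal receptor genes led the order. Tlr1 (396 ± 40.1), Tlr4 (317 ± 34.2) and Tlr6 (139 ± 17.8) came next on the per-kilobase scale. Tlr2 (91.5 ± 24.6) and Tlr9 (71.99 ± 20.3) overlapped in their libraries. Tlr3 was at 44.6 ± 2.27 and Tlr5 at 3.69 ± 1.30 per kilobase.

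The same order held in WKO unconfined cells, where Tlr6 and Tlr2 overlapped. In WT confined cells Tlr2 stood in place 4 with 547 ± 25.2 per kilobase (SD, n = 3), overlapping Tlr7 (573 ± 36.5) in place 3. Tlr1 with Tlr4, and Tlr9 with Tlr3, also overlapped there. In WKO confined cells Tlr2 stood in place 2 with 1355 ± 1174 per kilobase (SD, n = 3), and its libraries overlapped those of Tlr13 and of Tlr8 on either side. That place rested on replicate 5: replicates 1 and 2 had 766 and 592 per kilobase for Tlr2 against 1056 and 1269 for Tlr8. Without replicate 5 the Tlr2 mean was 679 and stood in place 3, below Tlr8 at 1163. Tlr5 was last in each group, with between 11 and 39 reads in a library.

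**Figure D1:**
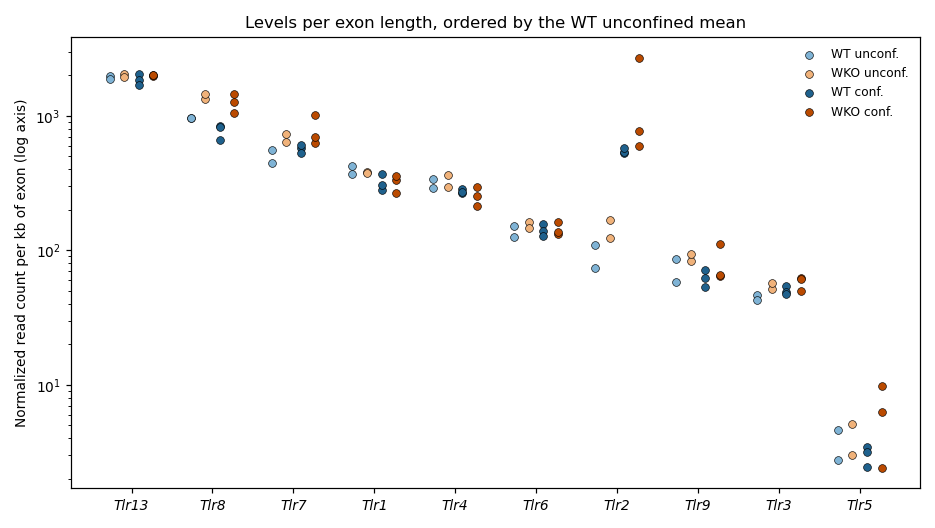
Level of each Toll-like receptor gene per kilobase of merged exon (vertical log axis) in each library, coloured by group and ordered by the WT unconfined mean. Tlr13 leads at 1924 per kilobase in WT unconfined cells, Tlr5 is lowest at 3.69, and Tlr2 is the gene whose points move most between unconfined and confined libraries.

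Tlr2 encodes the receptor for bacterial lipoproteins, which pairs with the products of Tlr1 or Tlr6. It lies on chromosome 3 of GRCm38, from 83836272 to 83841767 on the minus strand. Its promoter window of 300 bases (250 before to 50 after the RefSeq start) is shown because Tlr2 was the member that rose after confinement. The window of Tlr3 is shown as the other member window with an NF-kB consensus match, and that of Tlr8 as the member that differed between genotypes. The windows are chr3:83841559-83841858, chr8:45410331-45410630 and chrX:167264280-167264579 of GRCm38.p6, all on the minus strand and read 5′ to 3′. Capitals mark matches to the NF-kB consensus in Tlr2 and Tlr3 and to GAGGAA, a core bound by the macrophage factor PU.1, in Tlr8, where it lies on the opposite strand and reads TTCCTC.
Tlr2: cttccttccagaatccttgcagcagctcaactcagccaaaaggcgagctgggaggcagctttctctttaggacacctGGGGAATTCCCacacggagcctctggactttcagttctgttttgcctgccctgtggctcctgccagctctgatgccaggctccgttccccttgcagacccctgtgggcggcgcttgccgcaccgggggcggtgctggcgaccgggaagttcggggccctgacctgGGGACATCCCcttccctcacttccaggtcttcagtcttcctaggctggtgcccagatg
Tlr3: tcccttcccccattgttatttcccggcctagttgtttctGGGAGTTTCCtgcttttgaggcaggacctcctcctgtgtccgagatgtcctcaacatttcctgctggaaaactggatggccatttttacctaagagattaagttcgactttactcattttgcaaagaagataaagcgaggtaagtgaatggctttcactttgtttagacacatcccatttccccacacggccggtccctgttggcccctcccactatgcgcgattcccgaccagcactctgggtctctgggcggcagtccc
Tlr8: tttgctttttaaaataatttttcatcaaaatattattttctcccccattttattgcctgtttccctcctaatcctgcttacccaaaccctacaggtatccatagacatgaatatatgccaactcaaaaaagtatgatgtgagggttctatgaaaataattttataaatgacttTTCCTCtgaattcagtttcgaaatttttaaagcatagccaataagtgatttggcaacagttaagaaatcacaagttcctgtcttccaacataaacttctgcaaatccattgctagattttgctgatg

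RefSeq windows were found for 8 of the 10 genes, 10 windows in all; Tlr4 and Tlr7 had no entry in the table used here. Searched on both strands, the NF-kB consensus was present in 2 of these windows, against 8.46% of 32851 promoter windows of the same length. The Tlr2 window held 2 separate stretches, the first beginning 173 bases and the second 8 bases before the start. Matches within the first stretch overlap each other, and both stretches read as matches on either strand. The Tlr3 match began 211 bases before the start. GAGGAA was in 4 member windows (Tlr1, Tlr8, Tlr9 and Tlr13; 28.3% of all windows), TGACTCA in that of Tlr9 (5.20%), and TGACGTCA in none of them (1.79%). A match describes letters only.

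Tlr2 rose after confinement in both genotypes. In WT unconfined libraries its normalized counts were 223 and 328 (replicates 1 and 3), and in WT confined libraries 1582, 1635 and 1732 (replicates 2, 3 and 6). The confined libraries lay close together and all far above the unconfined ones. The ratio of means was 5.98, from 276 ± 74.2 (SD, n = 2) to 1650 ± 75.9 (SD, n = 3). The difference was 2.60 on the log2(count + 1) scale (SE 0.473, 95% interval 1.57 to 3.64, limma adjusted p 0.0235). Of the 10 receptor genes, 1 was called in this comparison, as higher, where a call is a limma adjusted p under 0.05 over all 12455 tested genes. Of all tested genes 1.16% were called, 0.891% as higher.

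In WKO cells Tlr2 had 370 and 506 normalized counts unconfined (replicates 1 and 3) and 2309, 1786 and 8161 confined (replicates 1, 2 and 5). The groups did not overlap, and replicate 5 was far above the other confined libraries. The ratio of means was 9.33, from 438 ± 96.1 (SD, n = 2) to 4085 ± 3539 (SD, n = 3). The log2 difference was 2.90 (SE 0.473, 95% interval 1.86 to 3.93, limma adjusted p 0.0106). Without WKO confined replicate 5, the library with the highest stromal and macrophage marker sums, the difference was 2.23 and passed (limma adjusted p 6.42e-05). Again 1 of 10 receptor genes was called, against 1.72% of all tested genes, or 1.49% as higher.

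Averaged over both genotypes, the confinement difference of Tlr2 was 2.75 (95% interval 2.02 to 3.48, limma adjusted p 0.000673), and 1 of the 10 genes was called against 6.21% of all tested genes, 4.13% as higher. This average passed under each of the 17 alternatives run on it, with adjusted p between 2.89e-08 and 0.00762. Within WT the call missed the threshold in edgeR's quasi-likelihood test (adjusted p 0.0638), with no filter on low values (limma adjusted p 0.0502) and without any 1 of the 5 WT libraries (limma adjusted p 0.083 to 0.213, differences 2.33 to 2.88). Within WKO it did so without unconfined replicate 1 (limma adjusted p 0.147) or 3 (0.0639), and when only the WKO libraries were fitted (0.128). No label says if control cells went through the PDMS setup without being squeezed, so handling and confinement cannot be told apart. In the confinement average limma called Elane (1 of 10 neutrophil and progenitor markers) and Cd79b (1 of 4 tested B cell markers) lower. Cd14 (1 of 8 macrophage markers) was called higher, and 0 of 8 stromal markers were called. Of all 12455 tested genes 258 were called lower. The part of these markers in the rise of Tlr2 was not tested.

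The responses of the genotypes were compared directly by the interaction. For Tlr2 it was 0.29 on the log2 scale, with a 95% interval from -1.17 to 1.76 (limma adjusted p 0.999). With limma 0 of the 10 receptor genes and 0 of the 12455 genes passed, or 0.0%. At an unadjusted p under 0.05 there were 0 receptor genes and 258 genes (2.07%), and edgeR and DESeq2 also called 0.

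**Figure D2:**
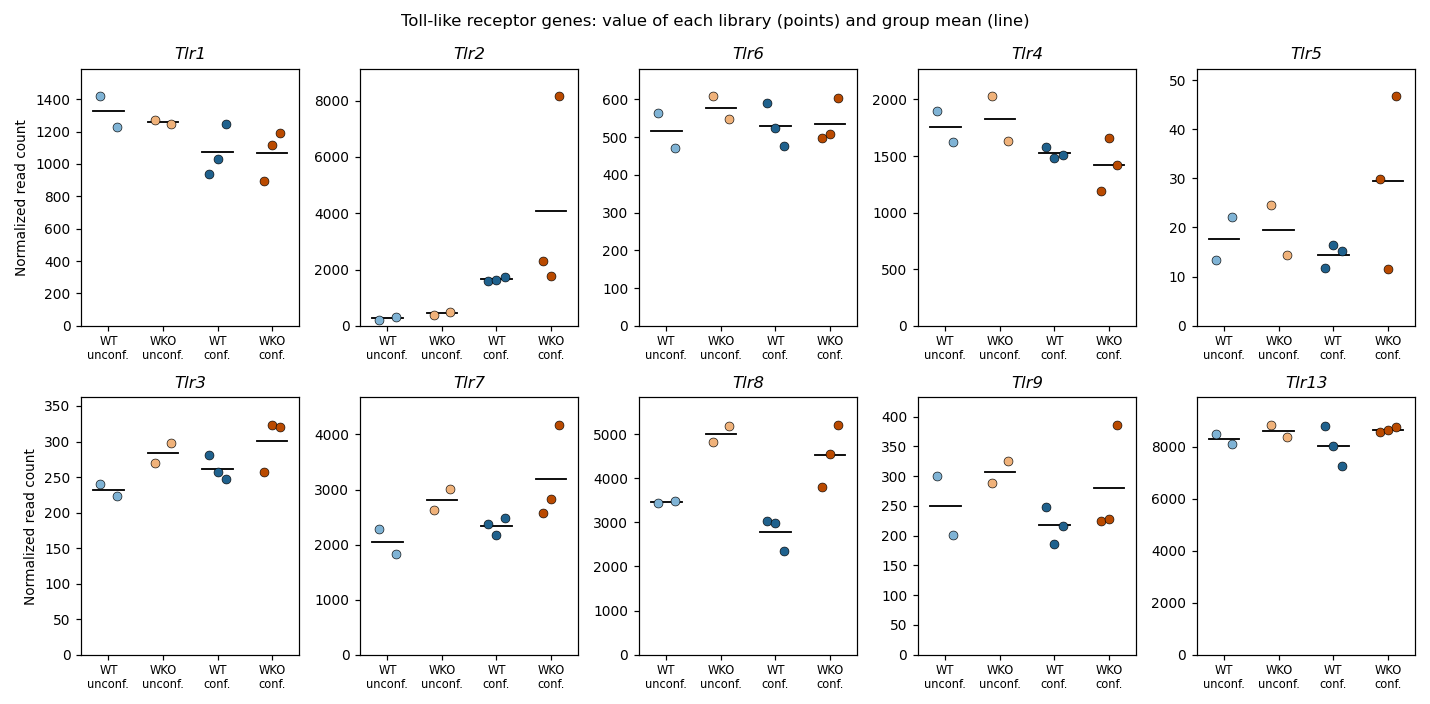
Normalized read count (vertical axis, from 0) of the 10 Toll-like receptor genes in each library (points), with the group mean (line), for WT and WKO cells unconfined and confined. Tlr2 runs from 223 to 506 in unconfined and from 1582 to 8161 in confined libraries, and Tlr8 is higher in WKO than in WT libraries within each condition.

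The partners of Tlr2 did not pass the test. Tlr1 (chromosome 5, 64924679 to 64933563) had 1419 and 1229 normalized counts in WT unconfined and 1272 and 1247 in WKO unconfined libraries. After confinement it had 941, 1031 and 1245 in WT and 897, 1115 and 1190 in WKO libraries, below the unconfined values in WKO and overlapping them in WT. Its log2 difference averaged over genotypes was -0.28 (95% interval -0.52 to -0.04, limma adjusted p 0.165). Tlr6 (chromosome 5, 64952031 to 64960097) ranged from 470 to 609 over all 10 libraries and overlapped in every comparison. The genes lie 18.5 kb apart, and their transcripts share a stretch of 1076 aligned bases at 94.9% identity, so that their counts are uncertain where reads could be assigned to either.

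Tlr4 encodes the receptor for lipopolysaccharide, which works with MD-2 (Ly96) and CD14, and lies on chromosome 4 from 66827584 to 66930284. Its normalized counts were 1895 and 1627 in WT unconfined, 2029 and 1631 in WKO unconfined, 1578, 1486 and 1505 in WT confined and 1189, 1656 and 1419 in WKO confined libraries. Confined values lay below unconfined ones in WT and overlapped them in WKO. The log2 difference was -0.21 in WT and -0.37 in WKO, and -0.29 over both (95% interval -0.52 to -0.05, limma adjusted p 0.144). Tlr5 (chromosome 1, 182954788 to 182976044), the flagellin receptor gene, had between 11.6 and 46.7 normalized counts in a library, 208 reads in all. At this depth its 95% intervals were wide, from -1.56 to 1.07 in WT and from -0.91 to 1.73 in WKO cells after confinement.

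Among the endosomal receptor genes, Tlr8 was higher in WKO cells. Tlr8 and Tlr7 both encode endosomal receptors, that of Tlr7 a sensor of single-stranded RNA or its breakdown products. The 2 genes are neighbours on chromosome X, with 40.6 kb between them (Tlr8 167242696 to 167264329, Tlr7 167304929 to 167330558, both on the minus strand). Tlr8 had 3436 and 3480 normalized counts in WT unconfined and 4823 and 5179 in WKO unconfined libraries. In confined libraries the values were 3019, 2986 and 2360 in WT (replicates 2, 3 and 6) and 3789, 4549 and 5204 in WKO (replicates 1, 2 and 5). All 5 WKO libraries were above all 5 WT libraries. WT confined values lay below WT unconfined ones, with a log2 difference of -0.32 (limma adjusted p 0.413).

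The confined means were 2788 ± 371 in WT and 4514 ± 708 in WKO (SD, n = 3 each), a ratio of 1.62 and a log2 difference of 0.69 (SE 0.131, 95% interval 0.40 to 0.98, limma adjusted p 0.0189). Of the 10 receptor genes 1 was called here, against 2.59% of all tested genes and 1.38% as higher. In unconfined cells the ratio was 1.45 and the log2 difference 0.53 (95% interval 0.18 to 0.88, limma adjusted p 0.265), and 0 of 10 genes were called against 0.145% of all. At an unadjusted p under 0.05 there were 2 receptor genes in unconfined cells, Tlr7 and Tlr8, against 9.6% of all tested genes. With edgeR's quasi-likelihood test and with DESeq2 0 receptor genes passed in unconfined cells, whereas Tlr8 passed when only the unconfined libraries were fitted (limma adjusted p 0.0383). Averaged over conditions Tlr8 differed by 0.61 (95% interval 0.38 to 0.84, limma adjusted p 0.00642), 1 of 10 genes called against 5.57% of all, or 2.9% as higher.

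The confined call of Tlr8 missed the threshold without any 1 of the 3 WT confined libraries (limma adjusted p 0.0557 to 0.0742, differences 0.58 to 0.75) and with only the confined libraries fitted (0.0803). The average was lost without WKO unconfined replicate 3 (difference 0.59, limma adjusted p 0.0531). Without WKO confined replicate 5 it was 0.56 and passed (limma adjusted p 0.00277). Markers of neutrophils and of B cells moved with genotype as well: averaged over conditions, 5 of 10 neutrophil and progenitor markers, 1 of 4 tested B cell markers (Ighm), 2 of 8 stromal markers (Cxcl12 and Thbs2) and 3 of 8 macrophage markers (Csf1r, Lyz2 and Mertk) were called higher in WKO. In confined cells alone, 4 of 8 stromal markers (Col3a1, Cxcl12, Pdgfrb and Thbs2) and 2 of 4 tested B cell markers (Cd79b and Ighm) were called higher. So were 1 of 3 tested conventional dendritic cell markers (Flt3) and the same 3 macrophage markers, but 0 of 10 neutrophil and progenitor markers. Of all tested genes 2.9% were called higher in the average and 1.38% in confined cells. WKO confined replicate 5, the highest of all for Tlr8, had the lowest neutrophil marker sum among the WKO libraries, 6971. Their part in the difference of Tlr8 was not tested. Of the 6 markers of plasmacytoid dendritic cells, a cell type known for nucleic acid sensing, 4 were tested and 0 were called in any comparison. Klk1 was at 0 in all libraries. The sum of the 6 markers was between 2100 and 2541 in WT and between 2355 and 3215 in WKO libraries.

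Tlr7 was also above WT in WKO cells, without passing the test. It had 2284 and 1823 normalized counts in WT unconfined, 2622 and 3006 in WKO unconfined, 2368, 2180 and 2474 in WT confined and 2574, 2829 and 4171 in WKO confined libraries. WKO values lay above WT values within each condition, and the highest was again WKO confined replicate 5. The log2 difference averaged over conditions was 0.44 (95% interval 0.15 to 0.72, limma adjusted p 0.0757). It was 0.33 without that library, and the adjusted p was then 0.0395 in limma. DESeq2 gave 0.45 with an adjusted p of 0.0193. The groups did not overlap between genotypes for 4 receptor genes in unconfined cells (Tlr2, Tlr3, Tlr7 and Tlr8, all higher in WKO), where 22.2% of all tested genes were higher without overlap. In confined cells there were 3 (Tlr2, Tlr7 and Tlr8), against 10.7%.

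Tlr2 itself had a log2 difference between genotypes of 0.67 in unconfined (95% interval -0.46 to 1.81, limma adjusted p 0.755) and 0.97 in confined cells (0.04 to 1.89, limma adjusted p 0.274). Without WKO confined replicate 5 the confined value was 0.30 (limma adjusted p 0.47). The average over conditions then became 0.49 and passed (limma adjusted p 0.0458), against 0.82 with all libraries (limma adjusted p 0.189).

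The remaining endosomal genes gave no call in any comparison. Tlr3 (chromosome 8, 45395665 to 45411080), whose product binds double-stranded RNA, overlaps an exon of Gm45542. Their transcripts share a stretch of 117 aligned bases, so the count of Tlr3 is uncertain. Tlr3 had 240 and 224 normalized counts in WT unconfined and 270 and 298 in WKO unconfined libraries. After confinement it had 281, 257 and 247 in WT and 257, 323 and 320 in WKO libraries, with a log2 difference between genotypes of 0.24 on average (95% interval -0.01 to 0.50, limma adjusted p 0.272). Tlr9 (chromosome 9, 106222598 to 106226883), the receptor gene for unmethylated CpG DNA, ranged from 187 to 300.2 in WT libraries. In WKO libraries it ranged from 224 to 386, with the highest value in WKO confined replicate 5, and WT and WKO values overlapped in both conditions.

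Tlr13 (chromosome X, 106143204 to 106160493), the most abundant member per length, had 8472 and 8092 normalized counts in WT unconfined and 8826 and 8365 in WKO unconfined libraries. The confined values were 8774, 8014 and 7269 in WT and 8559, 8630 and 8740 in WKO. The groups overlapped in each comparison. Its intervals were the narrowest of the 10 genes: the confinement difference averaged over genotypes lay between -0.18 and 0.14 and the genotype difference averaged over conditions between -0.08 and 0.24 on the log2 scale. Tlr11 and Tlr12, mouse receptors outside the 10 genes, had 21 and 29 reads in all libraries together.

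**Figure D3:**
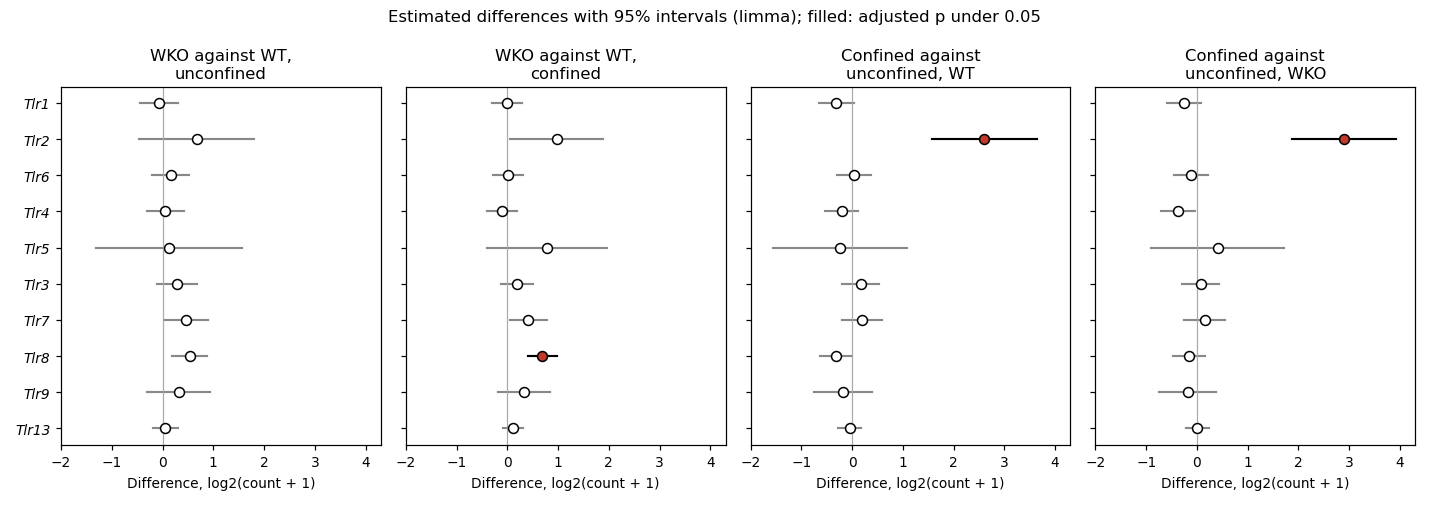
Estimated difference on the log2(count + 1) scale (horizontal axis, point) with its 95% interval (line) for each receptor gene in 4 comparisons; filled points have a limma adjusted p under 0.05. The filled points are Tlr8 between genotypes in confined cells (0.69) and Tlr2 after confinement in WT (2.60) and WKO (2.90).

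As a group the receptor genes had a median log2 difference after confinement of -0.12 in WT and -0.05 in WKO cells, against -0.007 and -0.013 over all tested genes. Apart from Tlr2 the members lay between -0.32 (Tlr8) and 0.20 (Tlr7) in WT and between -0.37 (Tlr4) and 0.41 (Tlr5) in WKO. Between genotypes the median was 0.23 in unconfined and 0.26 in confined cells, against 0.002 and 0.004 over all genes, with 9 and 8 of the 10 genes above 0. After confinement 2 genes were higher without overlap in WT (Tlr2 and Tlr3, against 18.3% of all tested genes) and 2 lower (Tlr4 and Tlr8, against 17.7%). In WKO 1 was higher (Tlr2, against 14.5%) and 1 lower (Tlr1, against 13.8%). All 10 genes passed the filter on low values.

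The genes whose pattern over the 10 libraries was nearest to that of Tlr2 and Tlr8 were sought among 10216 genes with a mean of at least 50. Likeness was the root mean square difference of log2(count + 1) after each gene was centred on its own mean. For Tlr2 they were Kdm6b, a histone demethylase (0.21), Cd83, a surface marker of activated antigen-presenting cells (0.28), and Rel, an NF-kB subunit (0.39). Each was highest in WKO confined replicate 5, as Tlr2 was: Kdm6b had 6536 normalized counts there against at most 2425 elsewhere. For Tlr8 the nearest were Pot1b, a telomere-binding protein (0.10), Fcgr4, an activating receptor for immunoglobulin G (0.13), and Gm36161 (0.13). After confinement Fcgr4 had 1198 ± 76.7 normalized counts in WT and 1910 ± 303 in WKO (SD, n = 3 each). The genes were chosen for likeness over the same 10 libraries. The peak shared with Tlr2 and the genotype difference shared with Tlr8 therefore follow from the choice. Kdm6b and Gm36161 overlap an exon of another gene and are uncertain.

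**Figure D4:**
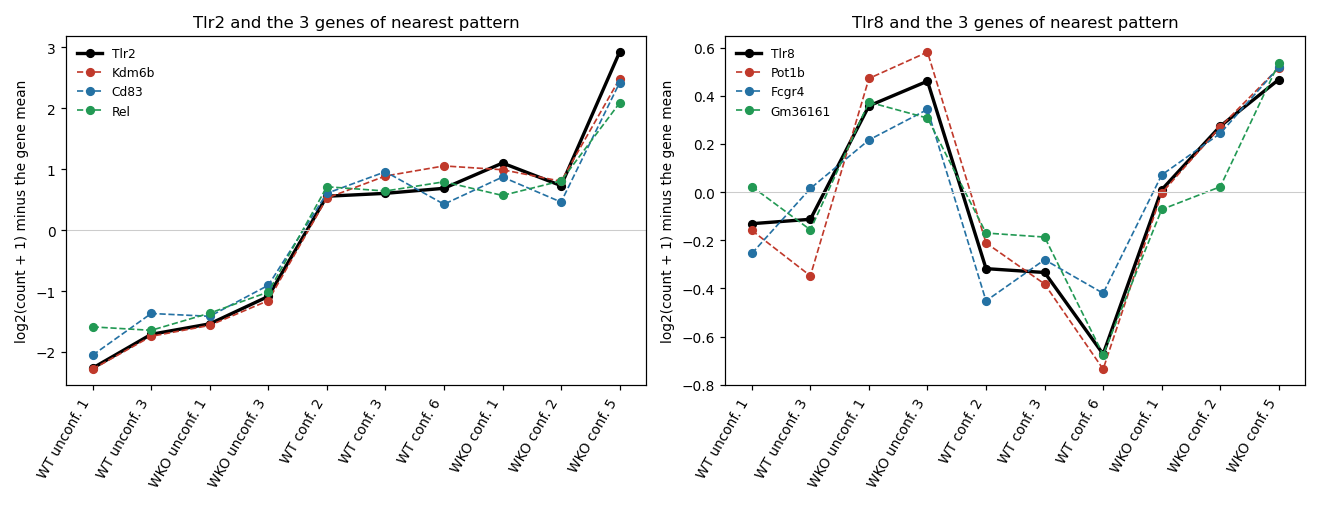
Centred log2(count + 1) (vertical axis) in the 10 libraries for Tlr2 (left) and Tlr8 (right), each with the 3 genes of nearest pattern (dashed). The Tlr2 panel steps up from unconfined to confined libraries and peaks in WKO confined replicate 5; the Tlr8 panel separates WKO from WT libraries.

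Other genes of the pathway were taken from 6 lists holding 68 genes, of which 63 were tested. The lists were chosen with earlier results of these data known, so their shares of called genes are descriptive and no test. After confinement 5 were called higher and 0 lower in WT, and 7 higher and 0 lower in WKO. These are 7.94% of the 63 in WT, beside 1.16% of all tested genes, and 11.1% in WKO, beside 1.72%. Averaged over genotypes 9 were higher and 1 was lower; 15.9% of the 63 were called, beside 6.21% of all tested genes. The median log2 difference of the 63 was 0.03 in WT and 0.12 in WKO.

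Inhibitors made up 3 of the 5 calls in WT and 4 of the 7 in WKO. Of 11 tested inhibitor genes 3 rose in WT (Nfkbia, Tnfaip3 and Dusp1) and 4 in WKO (with Tollip), where 0.891% and 1.49% of all tested genes were called higher. The median log2 difference of the 11 was 0.50 in WT and 0.59 in WKO. Nfkbia, the inhibitor that holds NF-kB in the cytoplasm and is itself an NF-kB target, had 505 ± 10.5 normalized counts in WT unconfined (SD, n = 2) and 7433 ± 2580 in WT confined libraries (SD, n = 3). Its log2 difference was 3.82 in WT and 3.55 in WKO (limma adjusted p 0.00286 and 0.00374). Tnfaip3, a ubiquitin-editing brake on the pathway, rose by 2.43 in WT and 2.71 in WKO (limma adjusted p 0.0212 and 0.00908). Dusp1, a phosphatase of MAP kinases, rose by 2.18 and 1.90 (0.029 and 0.0436 with limma). In both genotypes together Socs1 rose by 1.42 from between 5.76 and 18.6 normalized counts in unconfined libraries, and Tollip by 0.56.

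Among 20 tested kinases and ubiquitin ligases, Map3k8, the kinase that links the receptors to ERK, rose in both genotypes (1.47 in WT and 1.396 in WKO, limma adjusted p 0.0179 and 0.0181). Traf3 passed in the average (0.60, limma adjusted p 0.0377). Irak4 and Traf6, which act just below MyD88, were not called: Irak4 lay between 600 and 780 in all libraries, and Traf6 had a log2 difference of 0.43 on average (95% interval 0.09 to 0.77, limma adjusted p 0.131). Of 5 interferon regulatory factors Irf1 rose by 3.10 in WT and 2.43 in WKO (limma adjusted p 0.00173 and 0.00416), and Irf8, a lineage factor of macrophages, fell by 0.43 in the average (limma adjusted p 0.0145).

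Adaptors and trafficking factors gave no call in any comparison, 6 and 15 genes tested. Of all tested genes between 0.0% and 6.21% were called in a comparison, so a lack of calls among so few genes is near that share. Myd88 lay between 1050 and 1391 normalized counts in all libraries, and its 95% interval for the average confinement difference was -0.19 to 0.20. Ticam1, which encodes TRIF, had a log2 difference of 0.42 on average (0.04 to 0.80, limma adjusted p 0.191). Unc93b1, the chaperone that carries the endosomal receptors, lay between 7585 and 10423; its genotype difference averaged over conditions was 0.20 (95% interval 0.03 to 0.37, limma adjusted p 0.165).

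Of the 6 tested co-receptor genes, Cd14, which hands lipopolysaccharide and lipopeptides to Tlr4 and Tlr2 complexes, rose in WKO from 2885 and 3189 to 9372, 4938 and 14038 normalized counts (log2 difference 1.51, limma adjusted p 0.0324). In WT it went from 3723 and 4786 to 6641, 6431 and 5768, without overlap but without passing (0.57, limma adjusted p 0.506). The WT rise did pass in some alternative fit, and so did the genotype difference in confined cells. The interaction was 0.94 (95% interval -0.02 to 1.90, limma adjusted p 0.999). Ly86, the secreted partner MD-1 of the receptor-like protein CD180, was higher in WKO: confined libraries had 897, 849 and 702 in WT and 1579, 1410 and 1818 in WKO (log2 difference 0.97, limma adjusted p 0.0041). Cd180 was lower in WKO by 0.35 on average (95% interval -0.53 to -0.17, limma adjusted p 0.0319). Ly96 had 117 and 121 in WT and 168 and 160 in WKO unconfined libraries. After confinement it had 161, 144 and 146 in WT and 171, 173 and 206 in WKO libraries. Its genotype difference averaged over conditions was 0.37 (95% interval 0.09 to 0.65, limma adjusted p 0.127), and Ly96 was not called in any comparison.

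Between genotypes 0 of the 63 genes were called with limma in unconfined cells, beside 0.145% of all tested genes. In confined cells 1 was higher (Ly86) and 1 lower: Il1rl1, the receptor of interleukin-33 and a listed inhibitor, with a log2 difference of -2.06 (limma adjusted p 0.016). These 2 genes are 3.17% of the 63, near the 2.59% of all tested genes. Averaged over both genotypes, the confinement calls of Nfkbia, Tnfaip3, Dusp1, Map3k8, Tollip and Irf1 held under each of the 17 alternatives. Those of Cd14, Traf3, Socs1 and Irf8 did not, nor did the genotype call of Cd180. Within a single genotype the call of Dusp1 was missed under 10 of 18 alternatives in WKO (limma adjusted p up to 0.402) and 5 of 18 in WT, that of Cd14 in WKO under 9, that of Tollip in WKO under 6 and that of Tnfaip3 under 5 in WT and 3 in WKO. The call of Map3k8 was missed under 4 in WT and 2 in WKO, that of Nfkbia under 2 in each genotype, and that of Irf1 under 2 in WKO. The confined genotype call of Il1rl1 was missed under 3 of 18 (limma adjusted p up to 0.0698), those without WT confined replicate 2 or 6 and with only the confined libraries fitted. The calls of Ly86 in confined cells and of Irf1 in WT held in each one. Cd180, Myd88, Irak4, Dusp1 and Irf1 overlap an exon of another gene, which leaves their counts uncertain.

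**Figure D5:**
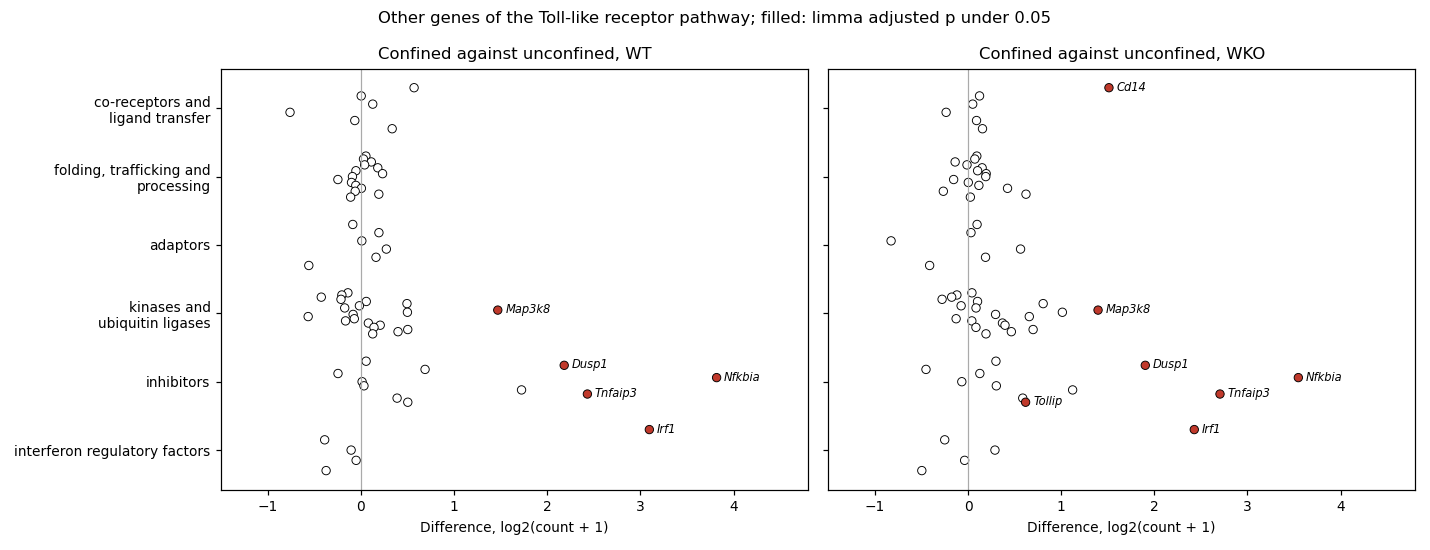
Log2(count + 1) difference after confinement (horizontal axis) of the 63 tested pathway genes, by list, in WT (left) and WKO cells (right); filled and named points have a limma adjusted p under 0.05. Nfkbia lies farthest right in both panels, at 3.82 and 3.55.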

How the data were processed

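Libraries of mRNA were made from 5 ng of total RNA for each of 10 samples. What the authors deposited is a single table of size-factor normalized counts, a never-negative signal for every gene; the submitters' processing notes name FastQC, Trim Galore, STAR and GRCm38 (mm10), without roles. The counting tool, annotation and use of strand are not given in the sources used here. Every value above 0 was a whole multiple of the library's smallest (100% within 0.001), and DESeq2 size factors recomputed on these reads matched to 4.02e-15 (log2), so each library had been divided by 1 factor. A count of 3 reads, taken as the detection floor, is a normalized count between 2.35 and 3.59; floors cover counting error only.

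Genes with a mean of at least 10 (12455) were tested as log2(count + 1) with limma 3.58.1 in R 4.3.3, with 1 mean per group over all 10 libraries (6 residual degrees of freedom), a mean-variance trend and Benjamini-Hochberg adjustment per contrast. Differences on this scale understate the change of low genes. The 7 contrasts were genotype in each condition, confinement in each genotype, their interaction and both averages. Alternatives used edgeR 4.0.16, DESeq2 1.42.0, other scalings, filters and library choices. The limma script was tested on simulated data. Exon lengths and coordinates came from GENCODE M21 (GRCm38) by identifier; 4929 identifiers were not in it, so the counting annotation differed. Shared sequence was searched with blastn 2.17.0 at 90% identity over at least 100 bases.

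The receptors were taken by name, but this family and the gene lists were chosen with earlier results of these data known. Named genes were the 10 receptors, Was and the listed pathway genes past the threshold in any contrast. Of the listed genes 7 were named in any case (Cd14, Ly96, Unc93b1, Myd88, Ticam1, Irak4 and Traf6). The 3 nearest patterns were named for each receptor called for genotype within a condition or for confinement within a genotype.

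Marker lists of other cells gave the following: conventional dendritic cell markers summed to at most 88.8, T and NK cell markers to at most 12.5, and mast cell and basophil markers to at most 107 normalized counts in a library.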

Additional observations from a re-analysis of the deposited data

How the results depend on the processing

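The 7 comparisons are given in the order genotype unconfined, genotype confined, confinement in WT, confinement in WKO, interaction, genotype averaged and confinement averaged. With all 10 libraries limma called 18, 322, 144, 214, 0, 694 and 773 genes. Without any 1 library the counts ran from 4 to 141, 58 to 701, 22 to 397, 43 to 1043, 0 to 0, 169 to 1115 and 288 to 1807. DESeq2 called 181, 775, 332, 484, 0, 1147 and 1219. With no filter on low values, counts that moved by over 1.5 times were 10 and 186 genes for genotype (unconfined and confined) and 438 for genotype averaged. Fitting only the groups compared gave 189, 90, 455 and 33 genes in the first 4 comparisons; it is the same fit for the others and was not run there. TMM, upper-quartile scaling, a pseudocount of 5 and edgeR moved no count of all genes by over 1.5 times. TMM and upper-quartile scaling shifted the median of all genes by at most 0.026 in any comparison.

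Receptor genes called were 0, 1 (Tlr8), 1 (Tlr2), 1 (Tlr2), 0, 1 (Tlr8) and 1 (Tlr2). Leaving out 1 library gave 0 to 1 in genotype confined and in confinement of either genotype, 0 to 3 in genotype averaged, 1 in confinement averaged and 0 in the others. Only the groups compared gave 1 (Tlr8) unconfined, 0 confined and 0 for confinement in WKO. For confinement in WT 0 passed with no filter and 0 in edgeR. DESeq2 called 2 (Tlr7 and Tlr8) for genotype averaged.

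The replicate numbers of the titles are shared by few libraries. Deviations from the group means were compared for same-numbered libraries within a genotype or within a condition. They correlated at between 0.006 and 0.076 over genes, so the numbers are not taken as pairs. Same-numbered libraries that differed in both genotype and condition were not compared. With the replicate number as a block (2 residual degrees of freedom), 245 genes passed for genotype unconfined and 383 for confinement averaged. Numbers 5 and 6 each belong to a single library, WKO confined replicate 5 and WT confined replicate 6. The block therefore also set these libraries aside, and the effects of blocking and of leaving them out cannot be told apart here. Receptor genes called under the block were 0 for genotype confined (Tlr8 0.52, limma adjusted p 0.0818) and 2 (Tlr2 and Tlr8) for genotype averaged.

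Of 88 called receptor values recomputed under alternatives, 88 kept their direction and 16 missed the threshold; of 1142 values that were not called, 6 passed and 63 changed sign without passing. The causes were not tested. Tlr5, with 11 to 39 reads per library, is the member most limited by depth.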
